A study of Mus musculus with 6 samples.

Results

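The genes described here are the proteasome and immunoproteasome genes, taken as every symbol that starts with Psma, Psmb, Psmc, Psmd or Psme in the deposited count tables. The rule found 45 genes among 32452 symbols listed in any of the 3 tables. They comprise 31 constitutive subunits, of which 7 form the alpha ring and 7 the beta ring of the 20S core, 6 are ATPases and 11 are non-ATPase subunits of the 19S cap. A further 3 are the immunoproteasome catalytic subunits Psmb8, Psmb9 and Psmb10, 3 are chaperones of 19S assembly (Psmd5, Psmd9, Psmd10), and 4 are activators of the core (Psme1, Psme2, Psme3, Psme4). Psma8 and Psmb11 are subunits known from testis and thymus, and Psme2b and Psmc3ip came in through their symbols only. All 45 genes were listed in the Day7 and Day14 tables and 44 in the chimaera table, which does not list Psmb11.

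The proteasome is the protease that degrades ubiquitin-tagged proteins. Its 20S core holds its proteolytic sites in the beta ring, and the 19S cap recognises, unfolds and feeds in the substrates. In cells exposed to interferon, and constitutively in lymphocytes, Psmb9, Psmb10 and Psmb8 replace Psmb6, Psmb7 and Psmb5 in newly built cores, which then cut proteins into peptides better suited to MHC class I. Psme1 and Psme2 together form PA28, a ring that opens the core and is likewise induced by interferon. In germinal centres (GC), B cells divide in the dark zone and test their receptors against antigen in the light zone.

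The cells were GC B cells sorted from the spleens of adult mice given NP-haptenated antigen in alum by the intraperitoneal route, and all libraries used 10x 5′ single-cell chemistry, which counts each captured transcript once by its molecular identifier (UMI). The Day7 group was 2 libraries of wild type B220+ CD38- GL7hi cells at day 7. The Day14 group was 2 libraries of wild type B220+ CD95hi GL7hi IgD- cells at day 14. The chimaera control and chimaera KO were 1 library each at day 14 with the Day14 gate, from irradiated hosts rebuilt with wild type marrow. Control hosts were Il4ra+/+, and KO hosts were Ccl19Cre/+ Il4raf/f, so the deletion of the IL-4 receptor alpha chain lies in host cells with Ccl19-Cre activity and the B cells measured are donor cells. Host cells that survive irradiation, among them stromal cells, remain in such mice. The study's title puts follicular dendritic cells and their limit on IL-4 at its centre. Nothing in the labels says that libraries of a group came from separate mice, so p-values may measure technical spread only.

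The libraries held 1012 to 10648 cells and 20339933 to 62202828 UMIs. The median cell held 17277.5 and 18233.5 UMIs in the Day7 libraries, 3399 and 3178.5 in the Day14 libraries, and 6676 and 7185.5 in control and KO. Pairs of libraries shared between 1 and 135 cell barcodes. The summed level of 9 GC B cell markers was 5852 to 7142 CPM (UMIs of the gene per 1000000 UMIs), against at most 128 CPM for 6 T cell markers and at most 33.9 CPM for 6 myeloid markers. Erythroid markers summed to 650.4 CPM in Day7 library 1 and to 217 CPM or less in the other 5 libraries. Il4ra, the gene deleted in the KO hosts, stood at 56.1 CPM in the control chimaera and 64.9 CPM in the KO chimaera, and as it is read in donor B cells it does not check the host genotype. The deposited zone calls put 36.2% to 44.9% of the cells of a library in the light zone (LZ), and 71.0% to 81.9% of LZ cells had a G1 call against 14.5% to 20.1% of dark zone (DZ) cells.

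Between the zones compared below, Psmb10, Psme1 and Psme2 were higher in LZ cells while most constitutive subunits were lower. Psmb9 was lower as well, and Psmb8 did not pass the test. The 300-base windows around the start sites of these genes, and of Psmb5 and Psmb6, are printed here. Each runs 5′ to 3′ on the strand of the gene, from 250 bases before the start to 50 after it, as given by RefSeq for build GRCm38.p6. Capitals mark a match on either strand to the interferon-stimulated response element core (GAAA, then any 2 bases, then GAAA), or to the antioxidant response element core, TGACNNNGC. The windows are Psmb8 at chr17:34197945-34198244 (plus strand), Psmb9 at chr17:34187281-34187580 (minus), Psmb10 at chr8:105938343-105938642 (minus), Psme1 at chr14:55578244-55578543 (plus), Psme2 at chr14:55591052-55591351 (minus, the upstream of its 2 listed starts), Psmb5 at chr14:54617946-54618245 (minus) and Psmb6 at chr11:70525107-70525406 (plus).
Psmb8: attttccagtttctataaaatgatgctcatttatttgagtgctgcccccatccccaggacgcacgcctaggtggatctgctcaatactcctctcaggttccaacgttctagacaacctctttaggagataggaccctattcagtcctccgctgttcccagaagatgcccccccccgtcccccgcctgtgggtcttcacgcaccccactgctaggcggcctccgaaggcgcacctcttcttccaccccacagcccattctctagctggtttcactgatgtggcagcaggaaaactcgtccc
Psmb9: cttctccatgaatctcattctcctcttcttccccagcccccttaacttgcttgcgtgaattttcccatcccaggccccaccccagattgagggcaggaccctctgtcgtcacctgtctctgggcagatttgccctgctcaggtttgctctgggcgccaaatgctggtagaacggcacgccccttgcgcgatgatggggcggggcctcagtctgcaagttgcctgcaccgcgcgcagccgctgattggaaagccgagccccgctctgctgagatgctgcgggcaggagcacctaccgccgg
Psmb10: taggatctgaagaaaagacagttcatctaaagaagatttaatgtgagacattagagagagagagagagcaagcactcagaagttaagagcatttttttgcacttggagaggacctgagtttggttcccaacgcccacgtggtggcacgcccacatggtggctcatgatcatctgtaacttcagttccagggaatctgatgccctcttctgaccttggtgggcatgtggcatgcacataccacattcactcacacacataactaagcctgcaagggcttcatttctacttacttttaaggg
Psme1: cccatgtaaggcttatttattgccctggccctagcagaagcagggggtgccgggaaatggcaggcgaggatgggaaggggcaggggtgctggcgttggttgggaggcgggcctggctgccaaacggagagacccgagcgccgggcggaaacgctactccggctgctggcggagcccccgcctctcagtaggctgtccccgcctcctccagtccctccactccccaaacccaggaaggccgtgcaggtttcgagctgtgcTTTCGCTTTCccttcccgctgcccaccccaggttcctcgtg
Psme2: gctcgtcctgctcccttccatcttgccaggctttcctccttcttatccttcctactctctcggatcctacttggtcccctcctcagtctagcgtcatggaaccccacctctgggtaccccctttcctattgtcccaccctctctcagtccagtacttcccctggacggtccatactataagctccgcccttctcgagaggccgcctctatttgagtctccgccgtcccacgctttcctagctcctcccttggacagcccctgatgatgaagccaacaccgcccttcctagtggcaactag
Psmb5: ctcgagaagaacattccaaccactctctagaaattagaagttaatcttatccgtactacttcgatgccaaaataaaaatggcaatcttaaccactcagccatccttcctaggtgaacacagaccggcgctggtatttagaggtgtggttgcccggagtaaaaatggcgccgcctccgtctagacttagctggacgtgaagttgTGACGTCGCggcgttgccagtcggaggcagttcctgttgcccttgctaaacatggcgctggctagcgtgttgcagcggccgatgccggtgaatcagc
Psmb6: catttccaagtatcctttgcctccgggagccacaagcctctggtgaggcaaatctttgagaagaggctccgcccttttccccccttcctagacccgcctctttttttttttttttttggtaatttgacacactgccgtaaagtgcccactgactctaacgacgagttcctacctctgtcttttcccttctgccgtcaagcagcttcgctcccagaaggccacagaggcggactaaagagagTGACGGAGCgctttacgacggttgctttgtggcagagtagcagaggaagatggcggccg

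The Psme1 match, TTTCGCTTTC, is the interferon-stimulated core read on the opposite strand and lies 9 bases after the start. The Psmb5 match, TGACGTCGC, and the Psmb6 match, TGACGGAGC, lie 47 and 9 bases before it. Of 38 members with a promoter entry, 4 held that core (Psmb3, Psmd4, Psmd9, Psme1), which is 10.5%, against 3.99% of 27025 genes. TGACNNNGC was found in 6 of the 38 (15.8%), against 14.0% of all genes. The letters CACGTG, an E-box, occurred in 4 (10.5%, against 8.09% of all genes), CCAAT in 15 (39.5%, against 41.1%) and TTCNNNGAA in 2 (5.26%, against 9.55%). Among the genes printed, Psmb8 held TTCCCAGAA at 97 bases before its start, Psmb9 held ATTGG, which is CCAAT on the opposite strand, at 8 bases before, and Psmb10 held CACGTG at 116 bases before. Both strands were searched for each motif, and the matches named here do not overlap each other. The start of Psmb9 faces that of Tap1, a subunit of the peptide transporter, whose window at chr17:34187306-34187605 lies on the opposite strand and largely over that of Psmb9. These matches describe letters in a window and show no binding.

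Psmb8 was the most abundant of the catalytic genes in all 6 libraries, and each immunoproteasome gene stood above the gene it replaces, except Psmb9 in the Day14 libraries. Psmb8, which encodes the subunit that replaces Psmb5, was at 1138 and 1238 CPM in the Day7 libraries, 894 and 939 CPM in the Day14 libraries, 1097 CPM in the control chimaera and 1061 CPM in the KO chimaera. Psmb9, which replaces Psmb6, was at 574 and 705 CPM at day 7, 252 and 258 CPM at day 14, 399 CPM in the control chimaera and 348 CPM in the KO chimaera. Psmb10, which replaces Psmb7, was at 248 and 264 CPM at day 7, 199 and 206 CPM at day 14, 207 CPM in the control chimaera and 186 CPM in the KO chimaera. For all 3 genes both Day7 libraries lay above the other 4.

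Among the constitutive catalytic subunits, Psmb5, the chymotrypsin-like site, was at 308 and 323 CPM at day 7, 181 and 180.3 CPM at day 14, 340.4 CPM in the control chimaera and 363 CPM in the KO chimaera. Psmb6, the caspase-like site, was at 267 and 292 CPM at day 7, 259 and 272 CPM at day 14, and 304 and 306 CPM in control and KO. Psmb7, the trypsin-like site, was at 121 and 135 CPM at day 7, 95.01 and 96.7 CPM at day 14, and 102 and 100.5 CPM in control and KO. Psmb5 was lowest in the Day14 libraries and highest in the chimaeras, the Day14 libraries of Psmb7 lay just below the chimaeras, and the Psmb6 libraries of days 7 and 14 overlapped.

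The activators differed among themselves. Psme1 was at 636 and 726 CPM at day 7, 484 and 495 CPM at day 14, 625 CPM in the control chimaera and 588 CPM in the KO chimaera, and Psme2 followed the same order from 533 down to 303 CPM. Psme3, or PA28 gamma, which is nuclear and not induced by interferon, was at 84.1 and 88.4 CPM at day 7, 51.6 and 51.3 CPM at day 14, and 65.3 and 68.3 CPM in control and KO. Psme4, or PA200, another nuclear activator, was at 24.7 and 19.9 CPM at day 7, 40.6 and 40.4 CPM at day 14, and 18.8 and 17.7 CPM in control and KO. Psme4 was the one activator highest in the Day14 libraries.

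Summed by role, the 31 constitutive subunits reached 6877 and 7299 CPM at day 7, 4354 and 4372 CPM at day 14, 6553 CPM in the control chimaera and 6692 CPM in the KO chimaera. Psma7 of the alpha ring, at 409 to 539.9 CPM over the libraries, and Psmb1 of the beta ring, at 238 to 490.4 CPM, were the most abundant of them at day 7 and in the chimaeras. The 3 assembly chaperones stood lower, Psmd5 at 41.0 to 51.0 CPM, Psmd9 at 45.7 to 58.9 CPM and Psmd10, or gankyrin, at 26.2 to 59.1 CPM. Psma8 did not pass 0.184 CPM in any library, and Psmb11 had 0 UMIs in the 4 libraries whose tables list it, which allows at most 0.0565 to 0.150 CPM by counting error. All members together took 1.04% and 1.12% of the UMIs at day 7, 0.674% and 0.683% in the Day14 libraries, 0.956% in the control chimaera and 0.952% in the KO chimaera.

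Some members share transcript sequence with other annotated genes, and how the counting treated such reads is not given in the sources used here. Of the 25-base words in its transcripts, Psme2b, annotated as a gene of its own and close to Psme2 in sequence, shared 82.2% with other genes, 79.5% with Psme2. Psme2 shared 66.1%, first of all with Psme2b. Psmb5 shared 76.7%, Psmb3 69.7%, Psma5 67.1%, Psmd2 52.3% and Psmc1 48.2%, in the main with predicted gene models and pseudogenes, so their levels are uncertain to that extent. Psmb8, Psmb9, Psmb10, Psmb2, Psmc3 and Psma7 shared none.

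**Figure D1:**
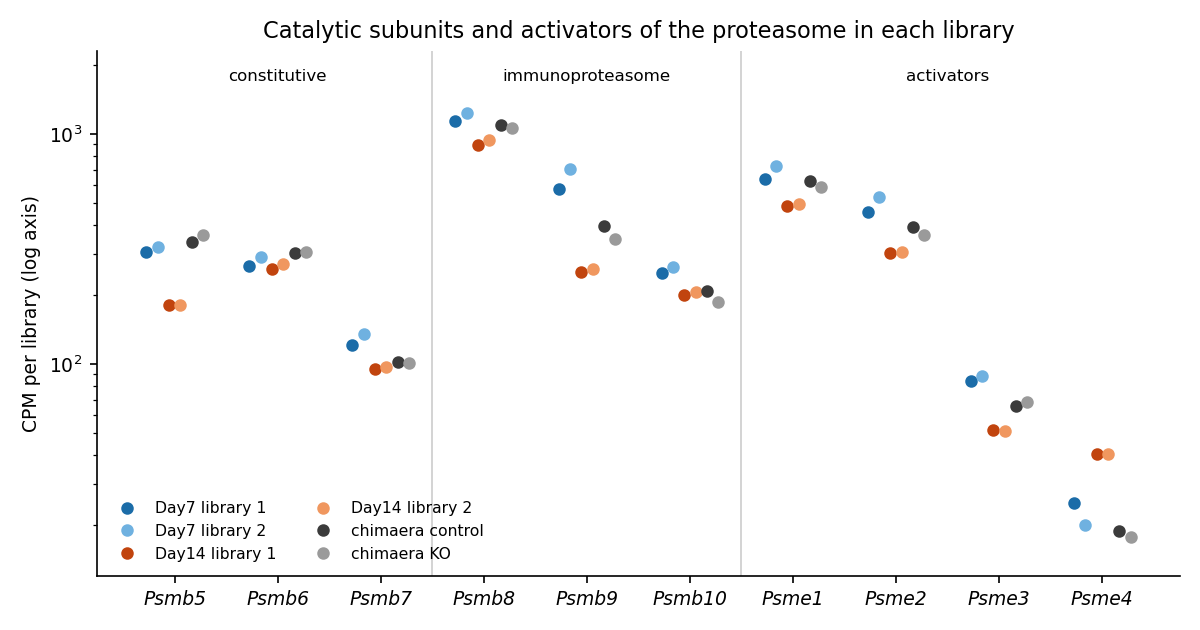
CPM on a log axis of the 3 constitutive catalytic genes, the 3 immunoproteasome genes and the 4 activators, with 1 point for each of the 6 libraries. Psmb8 leads in every library (894 to 1238 CPM), and Psme4 is the one gene whose Day14 points (40.6 and 40.4 CPM) lie above all others.

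The first comparison was between zones within each library. LZ cells had more Psme1, Psme2 and Psmb10 transcripts than DZ cells, while most constitutive subunits were lower in LZ cells. Of 43 members tested, 6 were higher and 26 lower in LZ cells at an adjusted p under 0.05 (edgeR, quasi-likelihood test, library as a block), when 31.3% of the 10862 genes tested were higher and 29.3% were lower. The median log2 change was -0.10 over the members and 0.01 over all genes. The zone calls were made on the same cells in a way not given in the sources used here, so these p-values do not allow for a member having been used in the calls.

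Psme2 was at 534 and 627 CPM in the LZ cells of the Day7 libraries and 412 and 482 CPM in their DZ cells, at 338 and 356 against 285 and 286 CPM in the Day14 libraries, and at 441 against 369 and 411 against 342 CPM in control and KO. It was higher in LZ cells in 6 of 6 libraries, by a log2 change of 0.26 (SE 0.03, adjusted p = 1.62e-05, edgeR). Psme1 was likewise higher in 6 of 6 libraries (log2 0.22, SE 0.03, adjusted p = 2.35e-05, edgeR). Its ratio was smallest in the control chimaera, at 664 against 599 CPM, and largest in Day14 library 2, at 581 against 455 CPM. Both genes of the PA28 ring therefore stood higher in the LZ of each library. Psmb10 was at 284 against 228 and 304 against 242 CPM at day 7, 219 against 189 and 233 against 193 CPM at day 14, 226 against 192 CPM in the control chimaera and 199 against 179 CPM in the KO chimaera (log2 0.21, SE 0.03, adjusted p = 0.000114, edgeR). Psme3 (log2 0.12, adjusted p = 0.00723), Psma3 of the alpha ring (log2 0.07, adjusted p = 0.0341) and Psme2b (log2 0.29, adjusted p = 0.000202) were the other 3 that were higher.

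The other immunoproteasome genes did not move with Psmb10. Psmb8 was higher in LZ cells in 3 libraries and lower in 3, with a log2 change of -0.03 (SE 0.03, adjusted p = 0.491, edgeR). Psmb9 was lower in LZ cells (log2 -0.11, SE 0.03, adjusted p = 0.00401, edgeR), in 5 of 6 libraries. Its fall ran from 570.1 against 577 CPM in Day7 library 1 to 375 against 418 CPM in the control chimaera. In Day14 library 2 it stood at 263 CPM in LZ and 255 CPM in DZ cells.

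Among the 31 constitutive subunits 1 was higher and 20 were lower in LZ cells. Of the cap's ATPases 5 of 6 were lower, with the lowest median of the subunit groups (log2 -0.20), and of the beta ring 6 of 7 (median -0.11). Psmc1 was at 137 and 145 CPM in the LZ and 173 and 172 CPM in the DZ cells of the Day7 libraries, at 121 and 123 against 167 and 163 CPM at day 14, and at 119 against 169 and 121 against 163 CPM in control and KO (log2 -0.44, SE 0.04, adjusted p = 9.2e-07, edgeR). In each library the LZ value lay below every DZ value of the 6 libraries. Psmc3, another ATPase, was lower by a log2 of -0.41 (adjusted p = 4.19e-06) and Psmd13, of the cap's lid, by -0.31 (adjusted p = 1.53e-05), in 6 of 6 libraries each. Psmb7 was lower in 6 of 6 libraries (log2 -0.31, SE 0.05, adjusted p = 0.000145, edgeR), Psmb6 in 5 (log2 -0.20, adjusted p = 0.000672) and Psmb5 in 4 (log2 -0.11, adjusted p = 0.015). All 3 chaperones were lower, Psmd9 by -0.19 and Psmd5 and Psmd10 by -0.09 each on the log2 scale, as was Psme4 by -0.14. The largest fall was that of Psmc3ip (log2 -0.54, adjusted p = 2.76e-06), which encodes a partner of meiotic recombination and is no subunit.

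Scaling and phase moved these counts. Scaled by library totals in place of TMM, which shifted the median of all genes by 0.04, 7 members were higher and 14 lower, so that 33.3% of the called members were higher, against 18.8% with TMM. The median log2 was then -0.05 over the members and 0.06 over all genes. Shares of all genes called at that scaling are not given here. Among cells with a G1 call alone, where 20.8% and 20.5% of genes were called, 2 were higher (Psme2 at log2 0.20 and Psme3 at 0.17) and 19 lower, and Psmb10 (0.06) and Psme1 (0.09) no longer passed. With phase as a covariate, 9 were higher and 12 lower (26% and 28.4% of all genes). Without the MYC-high clusters 4 were higher and 30 lower (29.2% and 29.8% of all genes), and Psme3 turned to -0.10. Markers moved with the zone as well. Of the 10 plasma cell markers 10 were higher in LZ cells, as were 9 of 10 memory precursor and 7 of 10 MYC-high markers, and 9 of 9 G2M markers were lower. Their part in the members' changes beyond the settings above was not tested.

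Other genes of the pathway were tested in the same fit. Of 12 genes of class I antigen processing 12 were higher in LZ cells, with a median log2 of 0.35, among them Calr (0.72), Tapbp (0.75), Pdia3 (0.56) and H2-K1 (0.50). Of 10 interferon regulators 7 were higher and 1 lower, with Irf1 at 0.57. Of 17 assembly and regulatory factors tested 5 were higher, among them Nfe2l1 (0.38), a transcription factor of proteasome genes, and 7 lower, among them Akirin2 (-0.62), Uchl5 (-0.37) and Ngly1 (-0.32). Of 13 ubiquitin and shuttling genes 0 were higher and 6 lower, such as Nploc4 (-0.38) and Ubb (-0.17).

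**Figure D2:**
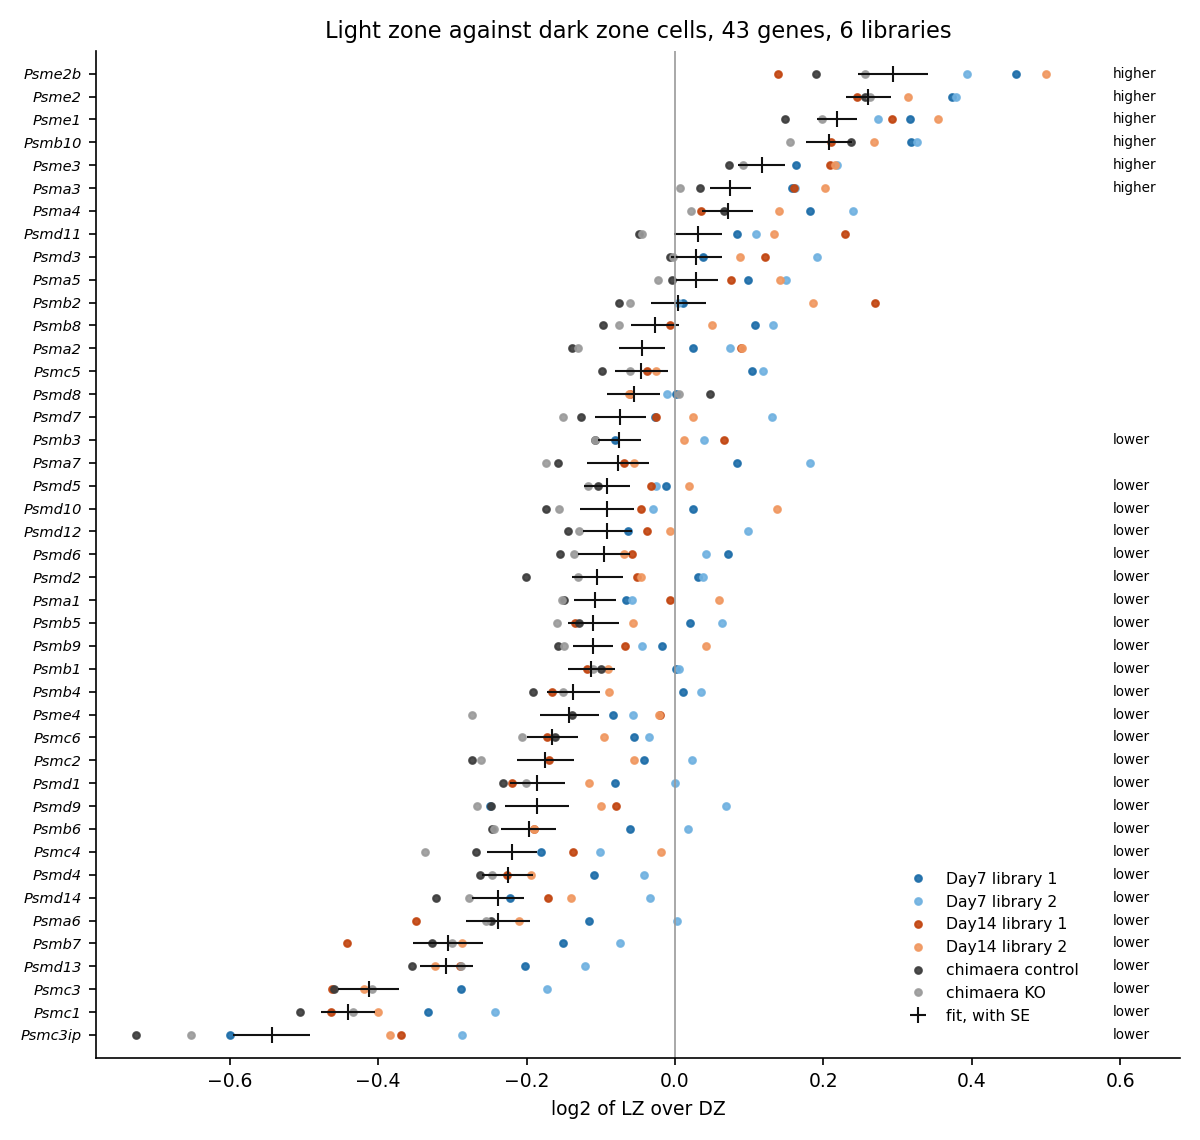
Log2 of the CPM in LZ cells over that in DZ cells for 43 members (points, 1 per library, before TMM scaling) with the edgeR estimate and its SE (black), where "higher" and "lower" mark an adjusted p under 0.05. Psme2, Psme1 and Psmb10 lie above 0 in all 6 libraries, and Psmc1, Psmc3, Psmd13 and Psmb7 lie below 0 in all 6.

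The second comparison was between cell cycle phases within each library, which overlap with the zones as given above. Constitutive subunits stood higher in S and G2M cells than in G1 cells, whereas Psmb10 and Psme1 were lower in both, Psme1 in S cells not among LZ cells alone (0.0198). In S cells 29 of 43 members were higher and 5 lower than in G1 cells, when 30.1% of 10964 genes were higher and 35% lower. In G2M cells 25 were higher and 4 lower, when 29.4% of genes were higher and 32.4% lower. The median log2 change of the members was 0.17 in S and 0.10 in G2M cells, against -0.04 and -0.03 over all genes. Like the zone calls, the phase calls were made on the same cells in a way not given in the sources used here. The p-values of this comparison thus do not allow for a member having been used in the phase calls. Scaled by library totals, 15 members were higher and 5 lower in G2M cells, so that 75% of the called members were higher in place of 86.2%. Shares of all genes called at that scaling are not given here, and the median log2 was 0.03 over the members and -0.09 over all genes.

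All 6 ATPases of the cap were higher in S and in G2M cells. Psmc3 was at 214, 267 and 253 CPM in the G1, S and G2M cells of Day7 library 1, at 219, 250.3 and 257 CPM in library 2, and at 168, 243 and 242 and 175, 239 and 251 CPM in the Day14 libraries. In the control it stood at 181, 247 and 259 CPM and in the KO chimaera at 179, 244 and 249 CPM. The G1 value was lowest in each of the 6 libraries, and the log2 changes were 0.44 in S (SE 0.04, adjusted p = 2.89e-08, edgeR) and 0.48 in G2M cells (SE 0.04, adjusted p = 9.05e-09, edgeR). Psmc4 (0.41) and Psmd1 (0.38), the latter a scaffold of the cap, followed in S cells. In G2M cells Psmc1 stood above Psmc3 (0.53), and Psma6 came below it (0.31). Psmb5, Psmb6 and Psmb7 were higher in S cells by 0.14, 0.20 and 0.28 and in G2M cells by 0.13, 0.26 and 0.26 on the log2 scale. Psmc3ip changed most, from 10.8 to 21.3 CPM in G1 cells to 49.7 to 68.7 CPM in S cells (log2 2.02, SE 0.07, adjusted p = 6.23e-14, edgeR), and by 1.04 in G2M cells.

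Psmb10 went the other way. It was at 282, 221 and 234 CPM in the G1, S and G2M cells of Day7 library 1, at 298, 250.4 and 248 CPM in library 2, at 219, 194 and 183 and at 239, 190.4 and 191 CPM in the Day14 libraries, and at 227, 198 and 193 and at 206, 174 and 182 CPM in control and KO. G1 was highest in 6 of 6 libraries, with log2 changes of -0.21 in S (SE 0.03, adjusted p = 4.54e-06, edgeR) and -0.19 in G2M cells (SE 0.03, adjusted p = 1.43e-05, edgeR). Psme1 was lower by -0.07 in S (adjusted p = 0.0307) and -0.22 in G2M cells (adjusted p = 9.09e-07), and Psme2 stood at -0.04 in S (adjusted p = 0.168) and was lower by -0.13 in G2M cells (adjusted p = 0.000556). Psmb8 did not pass the test in either phase (log2 -0.02 and 0.03), and Psmb9 stood at -0.02 in S (adjusted p = 0.692) and was higher by 0.21 in G2M cells (adjusted p = 4.25e-05). The S values differed between libraries, with Psmb9 at log2 ratios of CPM of -0.18 and -0.28 in the Day14 libraries and 0.10 and 0.04 in control and KO. In the chimaera table alone Psmb9 (0.10, adjusted p = 0.00671) and Psmb8 (0.052, adjusted p = 0.0435) were higher in S cells (edgeR), and the difference between tables was not tested. Psme3 was higher in both phases (0.24 and 0.14), Psme4 stood at 0.06 in S and was higher in G2M cells (0.14), Psmd9 was higher in both (0.12 and 0.30), Psmd5 was higher in S cells (0.18) and stood at 0.08 in G2M cells, and Psmd10 was lower in S cells (-0.12) and stood at -0.01 in G2M cells. Psmd8, of the lid, and Psme2b were also lower in S cells, by -0.08 and -0.19, and Psme2b by -0.23 in G2M cells.

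Zone and phase could be taken apart only in part. Among cells with an LZ call 23 members were higher and 1 lower in S cells, with a median log2 of 0.15, against -0.05 over all genes. In G2M cells, which made up 0.881% to 3.12% of LZ cells, 22 were higher and 2 lower (median 0.24 against -0.07). In this small group Psme2 stood above G1 (log2 0.35). Among cells with a DZ call 13 were higher and 6 lower in S cells (median 0.07 against -0.04). In their G2M cells 9 were higher and 4 lower, with a median of 0.00 against -0.03. The shares of all genes called within a single zone are not given here. The 5 lower members in S cells came to 2 or 3 whenever any of the 6 libraries was left out. Median UMIs also moved with phase, from 2461 to 13875 in the G1 cells of a library to 3786.5 to 21047 in its S cells. Antigen processing genes (10 of 12 lower in S and 9 of 12 in G2M cells) and interferon regulators (10 of 10 and 7 of 10 lower) had the direction of Psmb10. Of the assembly and regulatory factors 8 of 17 were higher in S cells, with Uchl5 at 0.82, and of the ubiquitin and shuttling genes 7 of 13.

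The share of the immunoproteasome subunits among the UMIs of the 6 catalytic genes Psmb5 to Psmb10 sets the replaced and the replacing subunits against each other. It was 73.8% and 74.6% in the Day7 libraries, 71.6% and 71.9% in the Day14 libraries, 69.5% in the control chimaera and 67.4% in the KO chimaera. Exact 95% intervals, which cover counting error only, ran from 71.2% to 71.9% and from 71.5% to 72.2% in the Day14 libraries, from 69.3% to 69.7% in the control chimaera and from 67.2% to 67.7% in the KO chimaera. The share was higher in LZ than in DZ cells in 6 of 6 libraries, by 1.84 and 1.03 percentage points in the Day7 libraries, 3.19 and 3.37 in the Day14 libraries, 1.95 in the control chimaera and 2.22 in the KO chimaera, with a mean of 2.27 points (SD 0.878, n = 6). Among G1 cells the mean difference was 1.96 points, again with 6 of 6 libraries above 0. By pair, it was 0.918 points for Psmb8 against Psmb5 (6 of 6 libraries), 1.51 points for Psmb9 against Psmb6 (5 of 6) and 7.74 points for Psmb10 against Psmb7 (6 of 6), so the last pair moved most. In the zone fit above only Psmb10 was higher in LZ cells, while Psmb9, Psmb5, Psmb6 and Psmb7 were lower and Psmb8 did not pass. A higher share is thus not a higher level of each immunoproteasome gene. By phase, the share was highest in G1 cells in all 6 libraries, from 69.5% in the KO chimaera to 75.6% in Day7 library 2. No test is given for this share, since the genes in it were chosen with earlier results known.

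The deposited clusters divide the same cells by their transcripts. They were drawn on the genes measured, so the values are a description with no test. The MYC-high clusters, named from markers such as Myc, Ncl and Npm1 and found in all 3 tables, had the highest constitutive level among the named clusters, at 7863 and 8339 CPM at day 7, 5346 and 5236 CPM at day 14, 8189 CPM in the control chimaera and 8285 CPM in the KO chimaera. Of 43 members 30 were higher there than in the other cells in every library and 2 were lower, when 28.7% and 30.9% of 5582 genes were. The median log2 ratio was 0.31 over the constitutive subunits and -0.02 over all genes. Psme3 had the largest ratio, with 129 and 127 CPM against 76.8 and 77.2 CPM at day 7, 102 and 94.8 against 47.7 and 47.4 CPM at day 14, and 119.6 and 109 against 60.1 and 64.6 CPM in control and KO (mean log2 0.88, SD 0.16, n = 6). Psmd7 of the lid (0.72), Psma4 of the alpha ring (0.65), Psme2 (0.62) and Psmc3ip (0.57) came next. Psmb8 and Psmb9 stood near 0, with mean log2 ratios of 0.04 (above 0 in 4 of 6 libraries) and 0.02 (3 of 6), against 0.31 and 0.33 for Psmb5 and Psmb6. Psmb10 was higher in 6 of 6 libraries (0.21), close to Psmb7 (0.22). The immunoproteasome share of these clusters was 72.9% and 73.4% in the Day7 libraries, 67.0% and 68.3% in the Day14 libraries, 64.5% in the control chimaera and 63.1% in the KO chimaera, below the share of the whole library in each.

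The memory-precursor-like clusters, named from markers such as Cd38, Ccr6 and Hhex in the Day14 and chimaera tables only, had lower levels than the other cells. Their constitutive level was 3562 and 3525 CPM at day 14, 5276 CPM in the control chimaera and 5399 CPM in the KO chimaera. Of 42 members 0 were higher than in the other cells in every library and 33 were lower, when 17% and 51.9% of genes were. The median log2 ratio was -0.36 over the members and -0.18 over all genes. Psmc3 was at 129 and 132 CPM in these clusters and 224 and 226 CPM in the other cells at day 14, and at 155 against 243 and 164 against 238 CPM in control and KO. Psmd14, the deubiquitinase of the lid (-0.65), and Psmc1 (-0.61) were close to it, and Psmc3ip was lowest (-0.99). Psmb8 was lower by -0.28 on average (SD 0.03, n = 4), and Psmb9 and Psmb10 stood at -0.10 and -0.15. Day7 cluster 3 also had memory precursor markers raised, 10 of 10, together with erythroid markers. It was left unnamed because myeloid and erythroid genes led it, and the counts and ratios above leave it out. Its constitutive level was 6434 and 6358 CPM in the Day7 libraries, against 6877 and 7299 CPM in the whole libraries. Its immunoproteasome share was 74.5% and 75.8%.

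In the plasma-like clusters the constitutive subunits had no common direction, with 1 higher and 5 lower in every library. Their median log2 ratio was 0.02, against -0.17 over all genes, so the ratios below are to be read beside that lower median. Of 43 members 2 were higher (Psmd3, Psme4) and 8 lower in every library, when 17.2% and 25.1% of genes were. The lowest were Psmb10 (mean log2 -0.44) and Psme1 (-0.40), and Psmb8 stood at -0.28, each lower in 6 of 6 libraries. The immunoproteasome share of the plasma-like clusters was 68.9% and 71.7% at day 7, 74.2% and 71.5% in Day14 cluster 8, 66.0% and 63.4% in Day14 cluster 9, 63.6% in the control chimaera and 62.0% in the KO chimaera. The ratios above pool Day14 clusters 8 and 9, whose constitutive levels were 3538 and 3336 CPM and 4509 and 4631 CPM. Cluster 8 also had light zone, GC B cell and erythroid markers raised. Chimaera cluster 5, which had no name from the markers, came near the MYC-high level, with 7889 CPM in the control chimaera and 8016 CPM in the KO chimaera. Among Day14 clusters, 2 unnamed ones with the fewest UMIs per cell (1012 to 1294 in the median) had the lowest constitutive levels, 1957 to 3094 CPM, and another unnamed one held cells of library 2 only.

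**Figure D3:**
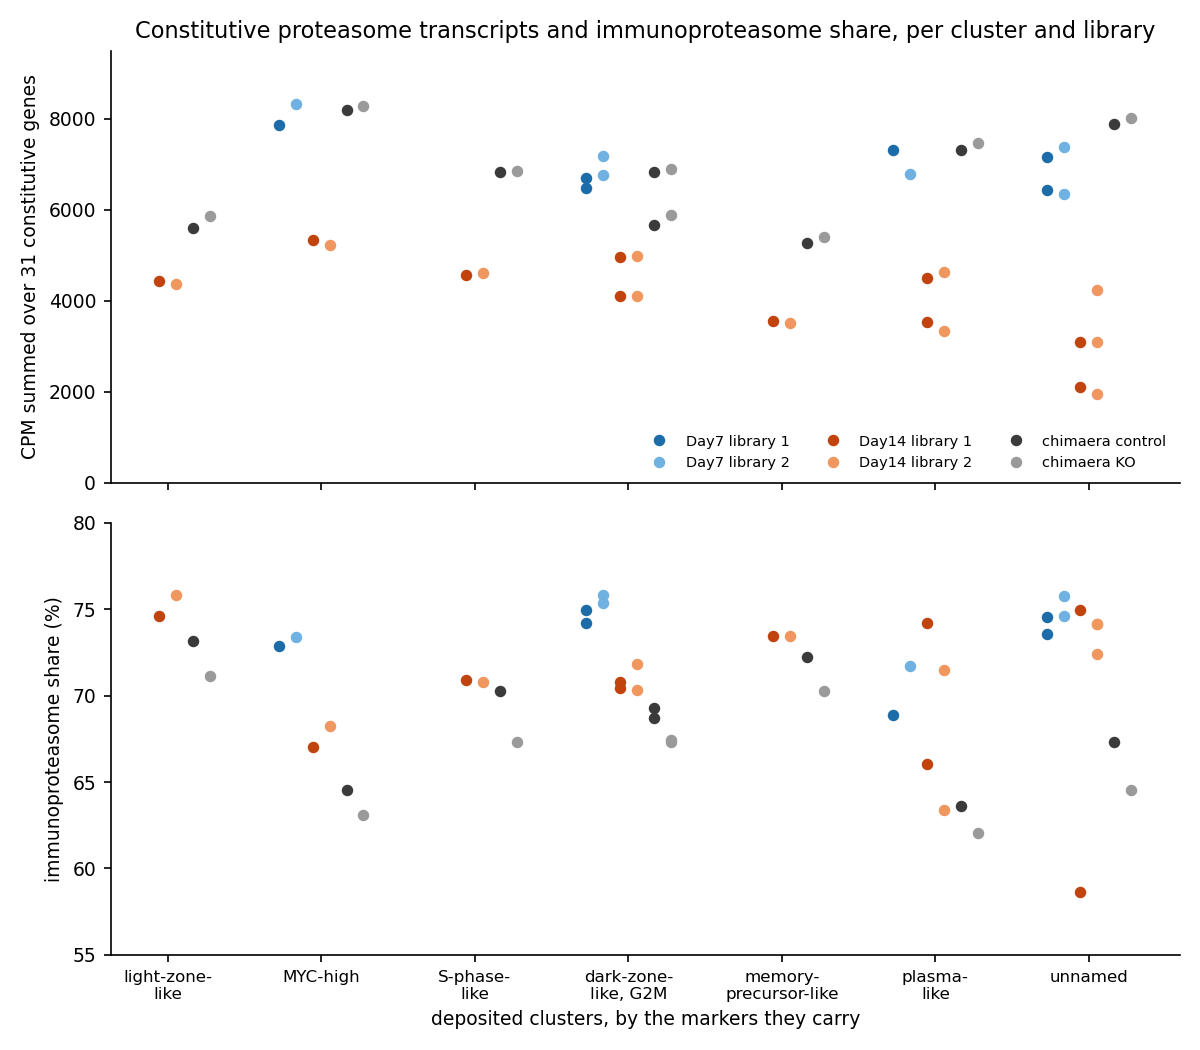
Upper panel, CPM summed over the 31 constitutive subunits, and lower panel, the immunoproteasome share of the UMIs of Psmb5 to Psmb10 (axis from 55%), for each deposited cluster and library, grouped by cluster name. MYC-high clusters have high constitutive levels (5236 to 8339 CPM) with shares of 63.1% to 73.4%, and memory-precursor-like clusters have lower levels (3525 to 5399 CPM) with shares of 70.3% to 73.5%.

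The third comparison was between the Day14 and Day7 libraries. Nearly all proteasome genes were lower in the Day14 libraries, among them all constitutive, immunoproteasome and PA28 genes. Of 43 members 1 was higher and 42 lower (edgeR, adjusted p under 0.05), when 34.9% of 11995 genes were higher and 33% lower. The median log2 change was -0.79 over the members and 0.04 over all genes. Sort gate, cell filters, depth and the number of symbols in the table all differed with the day, and their parts cannot be told apart from that of time.

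The largest changes among subunits were in the 20S core. Psmb2 was at 303 and 330.2 CPM at day 7 and at 73.0 and 69.7 CPM at day 14 (log2 -2.34, SE 0.08, adjusted p = 2.29e-05, edgeR). Psmb3 was at 387 and 412 CPM and then at 122 and 116 CPM (log2 -1.94, SE 0.08, adjusted p = 2.29e-05, edgeR), and Psma2 at 396 and 437 CPM and then at 136 and 137 CPM (log2 -1.80, SE 0.08, adjusted p = 2.53e-05, edgeR). All 3 encode non-catalytic subunits of the 2 rings, and their Day14 libraries lay far below the Day7 libraries. Psme2b fell from 116 and 79.2 to 17.6 and 16.2 CPM (log2 -2.71), with the reservation on shared sequence given above. Psmb9 was lower by -1.52 (SE 0.12, adjusted p = 9.68e-05, edgeR), Psmb8 by -0.56 (SE 0.08, adjusted p = 0.00108, edgeR) and Psmb10 by -0.53 (SE 0.07, adjusted p = 0.000874, edgeR). Their constitutive partners Psmb5, Psmb6 and Psmb7 were lower by -0.99, -0.26 and -0.61. Psme1, Psme2 and Psme3 were lower by -0.67, -0.89 and -0.93, and Psmd5, Psmd9 and Psmd10 by -0.40, -0.44 and -1.33. The CPM values of the 2 groups overlapped for Psmb6 and for Psmd4, a ubiquitin receptor of the cap. Psme4 alone was higher (log2 0.69, SE 0.10, adjusted p = 0.00136, edgeR).

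These values differed with the scaling and with the cells kept. With library totals in place of TMM, which shifted the median of all genes by 0.19, 1 was higher and 37 lower. Median log2 changes were then -0.60 over the members and 0.23 over all genes, and shares of all genes called are not given here. When only cells of 7290 to 9998 UMIs were kept, the range that both tables hold (143 and 151 cells at day 7, 979 and 1038 at day 14), 8 members were higher and 18 lower, when 22.6% and 22.4% of genes were. This range holds the shallowest Day7 and the deepest Day14 cells, and as UMIs differed by zone and phase, depth and cell state cannot be told apart in it. In these cells Psmb8 (-0.33), Psmb9 (-0.98) and Psmb10 (-0.52) were still lower, as were Psmb2 and Psmb3, while Psmb6 (0.45), Psmc1 (0.34) and Psmc3 (0.34) were higher and Psmb7 (0.18) and Psme3 (0.08) stood above 0. The chimaera libraries, made at day 14 with the Day14 gate, had mean levels nearer to Day7 than to Day14 for 30 of the 43 members and nearer to Day14 for 13, when 78.6% of genes were nearer to Day7. Psmb2 was at 269 and 290.0 CPM there, Psmb3 at 379.8 and 398 CPM and Psma2 at 348 and 351 CPM. Both Day14 libraries lay below both Day7 libraries for 40 members, when 44.2% of genes did, and both chimaera libraries did so for 30, when 56.1% of genes did. Psmb9, Psmb10 and Psmb7 were among the 13 nearer to Day14, the chimaera libraries giving 399 and 348 CPM for Psmb9. Plasma cell markers moved with the same groups, with 9 of 10 lower at day 14 and a summed level of 3816 to 3840 CPM at day 7, 911 to 943 CPM at day 14 and 2601 to 3806 CPM in the chimaeras. Their part in the members' changes was not tested.

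Of the other pathway genes, 10 of 12 antigen processing genes were lower at day 14, among them B2m (-1.46), and Nlrc5, an activator of class I genes, was higher (1.91). Of 10 interferon regulators 1 was higher and 4 lower, with Irf1 at -0.74. Of 17 assembly and regulatory factors 3 were higher and 10 lower, among them Txnl1 (-1.77) and Pomp (-1.18), the chaperone that matures the 20S core. Of 13 ubiquitin and shuttling genes 4 were higher and 6 lower, with Ubb at -1.39.

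**Figure D4:**
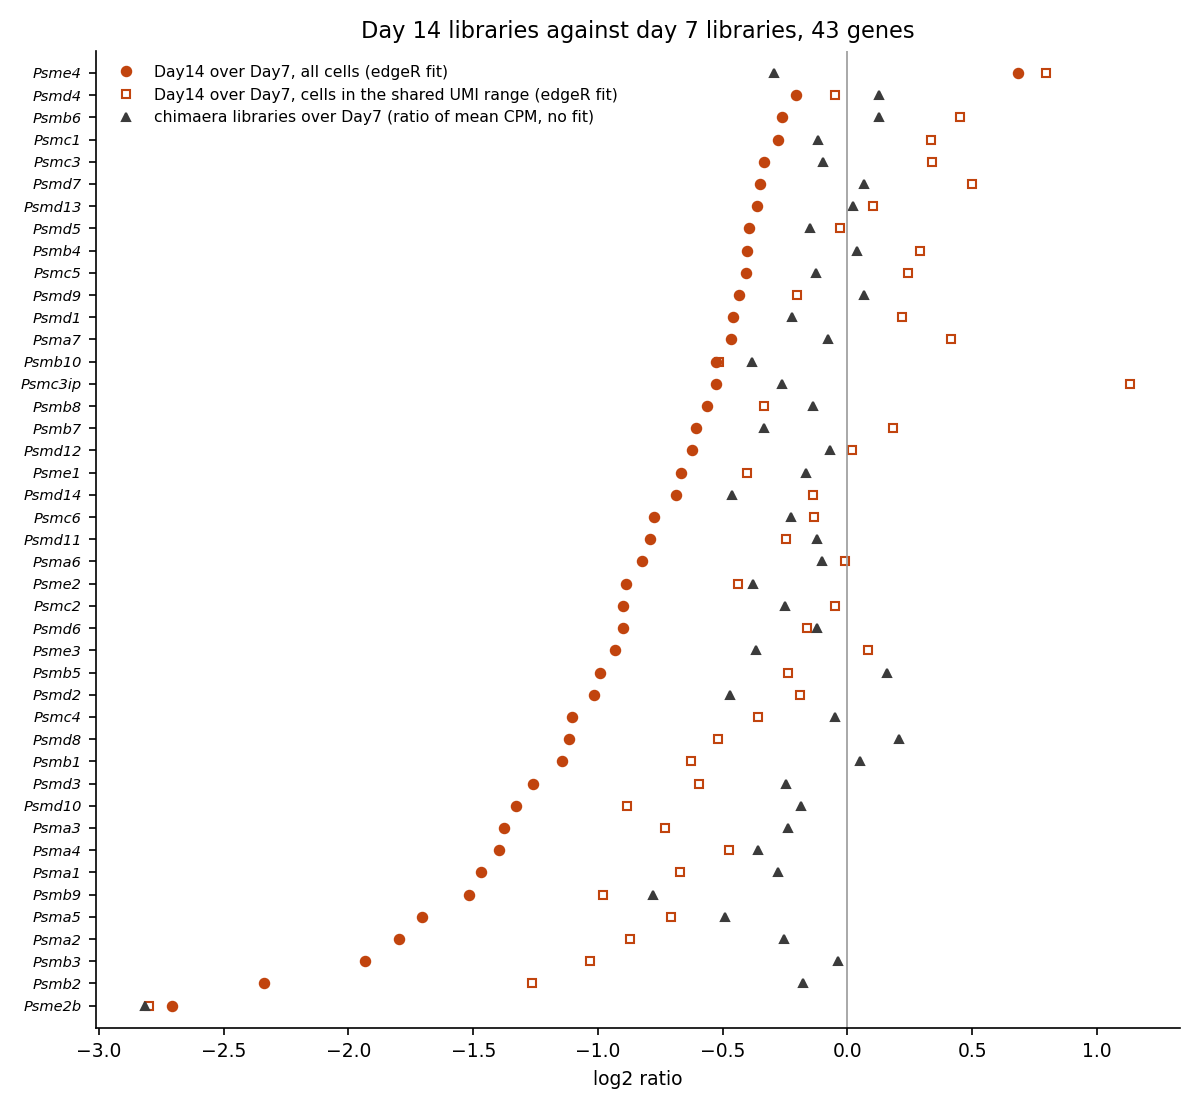
Log2 ratios for 43 members, ordered by the change between Day14 and Day7 in all cells (filled circles, edgeR), with the same fit on cells of 7290 to 9998 UMIs (open squares) and the ratio of the mean CPM of the chimaera libraries to that of Day7 (triangles, no fit). Of the filled circles 42 lie below 0, and the immunoproteasome genes stay below 0 in all 3 series.

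The zone difference itself was compared between days. Of 43 members 0 had a higher and 1 a lower LZ-to-DZ change at day 14 than at day 7, when 1.15% and 1.16% of 10994 genes did. Psma7 was at 492 and 585 CPM in LZ cells and 465 and 515 CPM in DZ cells at day 7, and at 396 and 417 against 415 and 433 CPM at day 14 (difference of log2 changes -0.23, SE 0.06, adjusted p = 0.0453, edgeR). LZ cells were thus above DZ cells at day 7 and below them at day 14. The call was lost with size factors, with library totals, among G1 cells, and without either Day14 library. Psmb7 (-0.29), Psma6 (-0.27) and Psmc3 (-0.25) had larger differences that did not pass. The other catalytic genes did not pass either, at -0.18 for Psmb5, -0.21 for Psmb6, -0.13 for Psmb8, -0.02 for Psmb9 and -0.12 for Psmb10. Nor did the activators, with Psme2 at -0.13, Psme3 at -0.02, Psme1 at -0.0075 and Psme4 at 0.0055, or the chaperones, with Psmd9 at -0.09, Psmd5 at -0.03 and Psmd10 at 0.02. Of the pathway genes outside the members, Vcp, a segregase that feeds the proteasome, had a lower change at day 14 (-0.33), and Ifi203 a higher one (0.76).

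The last comparison was between the chimaera KO and control libraries, which asked how GC B cells differ when Il4ra is deleted in host cells with Ccl19-Cre activity. With 1 library a group there is no test, and log2 ratios carry exact 95% intervals for counting error only. Psmb8, Psmb9, Psmb10, Psme1 and Psme2 were all lower in the KO chimaera by small amounts, and most constitutive subunits were slightly higher. The size rule asked for 20 CPM or more, a log2 ratio past 0.5 in size, an interval without 0 and a ratio above that between the Day14 libraries, and it was met by 0 of 41 members, when 0.574% of 5055 genes met it upwards and 0.831% downwards. At an absolute log2 ratio of 0.25 it was again 0, when 2.87% and 4.39% of genes met it.

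Psmb9 was at 399 CPM in the control chimaera and 348 CPM in the KO chimaera, a log2 ratio of -0.20 (interval -0.23 to -0.17). Psmb10 was at 207 and 186 CPM (log2 -0.15, interval -0.19 to -0.11), Psme2 at 395 and 365 CPM (log2 -0.12, interval -0.14 to -0.09), Psme1 at 625 and 588 CPM (log2 -0.09, interval -0.11 to -0.07) and Psmb8 at 1097 and 1061 CPM (log2 -0.05, interval -0.06 to -0.03). Between the 2 Day14 libraries, which share genotype and gate, the same 5 genes had log2 ratios of 0.03, 0.05, 0.02, 0.03 and 0.07. The ratio of Psmb8 is thus smaller than the one between those like libraries, and those of the other 4 are larger. Within the 8 chimaera clusters, Psmb8, Psmb9, Psmb10 and Psme1 were lower in the KO chimaera in 8 of 8 and Psme2 in 7 of 8. The interval lay below 0 in 6 clusters for Psmb9 and Psmb10, in 5 for Psme1 and Psme2 and in 4 for Psmb8. These clusters are parts of the same 2 libraries and no replicates. The share of all genes with 1 direction in every cluster is not given here. With equal cluster shares the ratios were -0.18 for Psmb9, -0.16 for Psmb10, -0.10 for Psme2, -0.09 for Psme1 and -0.06 for Psmb8. This setting evens out the mix of deposited clusters only, and the part of cell states within a cluster was not tested. TMM scaling shifted every log2 ratio by 0.03, which put Psmb8 at -0.02 and left all 5 below 0.

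Of the 31 constitutive subunits 22 lay above 0 and 9 below, when 50.5% and 49.5% of genes did, with a median log2 of 0.02, against 0.00 over all genes. Intervals lay above 0 for 11 and below for 1, when 25.4% and 24.9% of genes had such intervals. Psmd12 of the lid was at 126 CPM in the control chimaera and 139.8 CPM in the KO chimaera (log2 0.15, interval 0.11 to 0.20), followed by Psmd7 (0.12), Psmd1 (0.11) and Psmb2 (0.11), while between the Day14 libraries Psmd12 stood at -0.07 and Psmd7 at 0.08. Psmb5 was at 340.4 and 363 CPM (log2 0.09, interval 0.07 to 0.12). It was higher in the KO chimaera in 8 of 8 clusters, with the interval above 0 in 5. Psmb6 stood at 0.01 and Psmb7 at -0.03, the latter 0.00 with TMM. Psme3 stood at 0.07, Psme4 at -0.09, Psmd5 at -0.02 (0.01 with TMM), Psmd9 at -0.07 and Psmd10 at 0.04. With TMM, 29 constitutive subunits lay above 0 and 2 below.

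The immunoproteasome share followed from these values, with 69.5% in the control chimaera and 67.4% in the KO chimaera. In every one of the 8 clusters the KO value lay below the control value, from 71.1% against 73.2% in the light-zone-like cluster to 62.0% against 63.6% in the plasma-like cluster. The exact 95% intervals overlapped in clusters 4, 6 and 7. In cluster 7, the plasma-like one, they ran from 60.2% to 63.8% in KO and from 62.4% to 64.8% in control. The clusters are parts of 1 library a group and no replicates. Among the other pathway genes, 9 of 9 interferon regulators at 20 CPM or more lay below 0 with their intervals, with a median log2 of -0.42 (-0.08 between the Day14 libraries). Irf1 was at 57.5 and 36.6 CPM (log2 -0.65) and Isg15 at 23.0 and 15.0 CPM (log2 -0.62). Between the Day14 libraries Irf1 stood at 0.04 and Isg15 at -0.21. Ifi203 differed more between the Day14 libraries (-0.69) than between KO and control (-0.56). Of 11 antigen processing genes 3 lay above and 8 below 0, with a median of -0.24 (0.01 between the Day14 libraries), among them B2m (-0.44), Tap1 (-0.24) and Tap2 (-0.26). Assembly and regulatory factors had 8 above and 5 below, and ubiquitin and shuttling genes 2 above and 7 below. Plasma cell markers summed to 3806 CPM in the control chimaera and 2601 CPM in the KO chimaera, memory precursor markers to 410.3 and 300.0 CPM and T cell markers to 79.8 and 57.5 CPM, and beyond the ratios at equal cluster shares their part in these values was not tested. Host genotype and any other difference between these 2 libraries cannot be told apart.

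**Figure D5:**
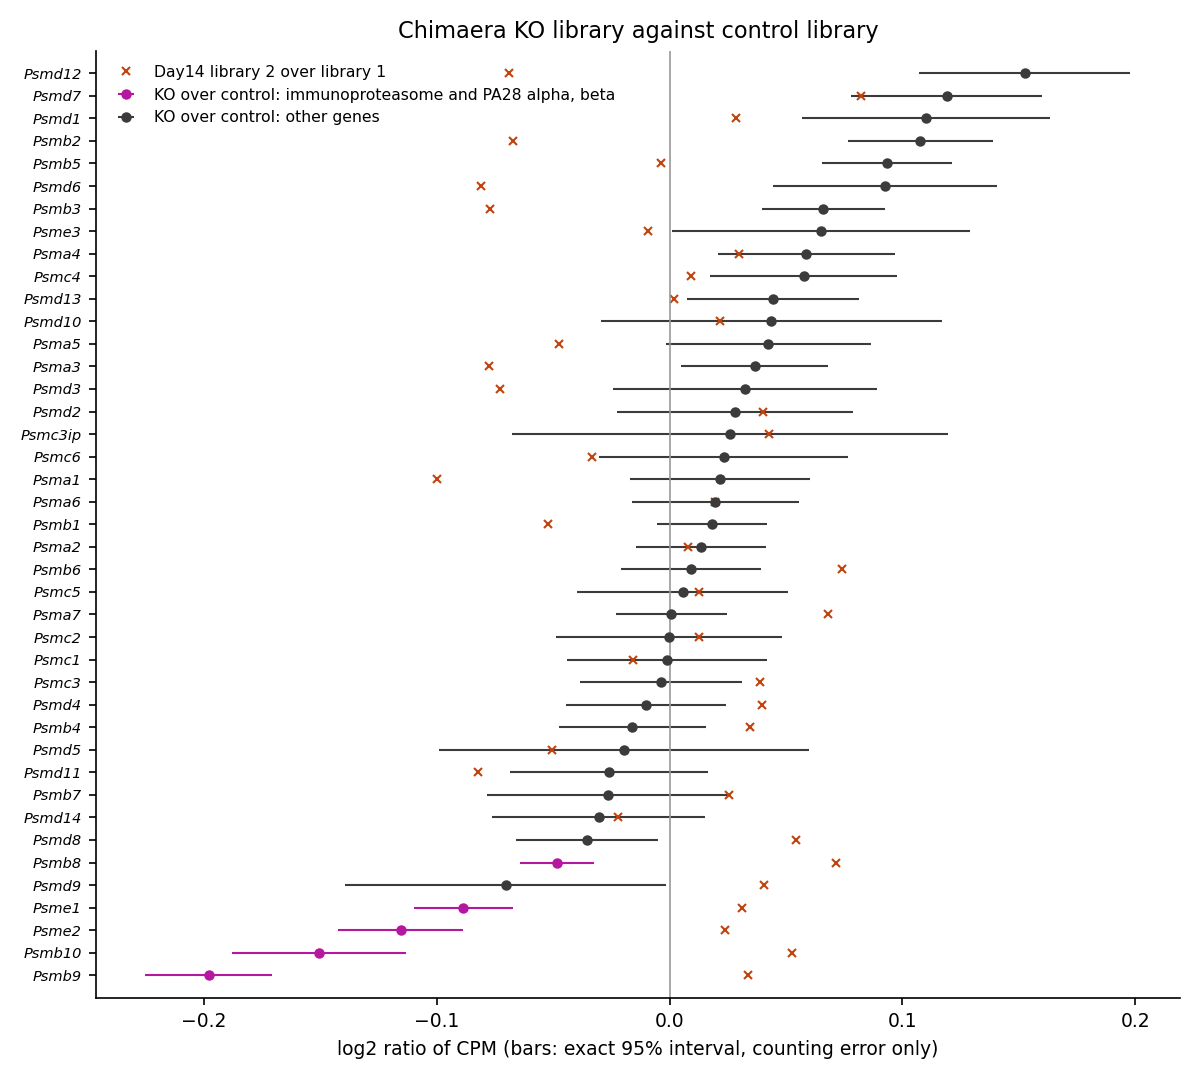
Log2 ratio of CPM in the KO over the control library for 41 members with at least 20 CPM (points, with exact 95% intervals for counting error), and of Day14 library 2 over library 1 (crosses). The 3 immunoproteasome genes with Psme1 and Psme2 (purple) lie toward the lower end, from -0.20 for Psmb9 to -0.05 for Psmb8. Psmd9, at -0.07, lies between Psme1 and Psmb8, and Psmd12 leads the upper end at 0.15.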

How the data were processed

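The authors deposited UMI counts per gene and cell for 6 libraries of sorted mouse GC B cells, and cell tables with a library label, phase, zone call and cluster number. Per the submitters' processing notes, Cell Ranger, Seurat and mm10 were used. Their versions, the cell filters and the way calls were made are not given in the sources used here. All deposited cells were kept, no doublet caller was run, and 1 column was not used.

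Cells hold 7290 to 49966 UMIs in the Day7 table, 500 to 9998 in the Day14 table and 554 to 19996 in the chimaera table. Counts were summed per library and per zone, phase or cluster. CPM (per 1000000 UMIs) was taken over the 14548 symbols listed in all 3 tables, and the day comparison was fitted on the 26599 symbols of its 2 tables. As 5′ UMIs count a transcript once, no length scaling was applied.

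Contrasts used edgeR 4.0.16 in R 4.3.3 (TMM, filterByExpr, quasi-likelihood, library as a block for zone and phase), with Benjamini-Hochberg adjustment over all genes tested and a threshold of 0.05. SE was taken as the size of the log2 change over the root of its F statistic. The fits were tested on simulated counts. Alternatives were DESeq2 1.42.0, its size factors, library totals, other filters on low counts, single tables, subsets of cells by phase, zone, depth or cluster, and leaving out each library. For KO against control, exact conditional binomial 95% intervals were computed, and for shares exact Clopper-Pearson intervals. All cover counting error only. Clusters took names from marker lists with a median log2 of at least 0.5 and at least 3 raised markers. Day7 cluster 3 met this for memory precursor markers but was left unnamed, as myeloid and erythroid genes led it. Sequences came from RefSeq, and words of 25 bases from GENCODE M21 transcripts.

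Members, lists and markers were chosen with earlier results of these data known. The catalytic subunits, activators and chaperones are named in every comparison of zones, phases, days and chimaeras, with up to 4 of the largest changes past the threshold in each direction, and up to 4 genes of each pathway list by lowest p. Other members, and the pathway genes named for the chimaeras, were chosen after their values were seen. Replicate numbers of Day7 and Day14 were taken as names only, as the labels do not tie them to a shared mouse or day. Some genes of the pathway lists are not reported here by name.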

Additional observations from a re-analysis of the deposited data

Results flagged for a closer look

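Psma7, a subunit of the 20S alpha ring, had a zone difference that itself differed between days 7 and 14. The difference of its log2 changes was -0.23 (SE 0.06, edgeR adjusted p = 0.0453), with LZ cells above DZ cells in both Day7 libraries and below them in both Day14 libraries. It was the 1 member of 43 to pass this test. The adjusted p was 0.0636 among G1 cells, 0.0699 with DESeq2 size factors, 0.0662 with library totals, and between 9.39e-09 and 0.674 when a library was left out. Gate, filters and depth differed with the day as well, and their part was not tested.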

How the results depend on the processing

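Of the alternative values of the main counts and of the share difference, 131 kept to the reported value (a count within 1.5 times, the share within its SD) and 37 did not. Without the replicate block by library, the zone fit called 0 members higher and 2 lower, the S fit 2 and 0, and the G2M fit 3 and 0, as differences between libraries then enter the spread. Library totals gave 14 lower in LZ cells, 15 higher in G2M cells and 0 in the interaction. For the zones, the Day7 table alone gave 8 lower, G1 cells 2 higher, and phase as a covariate 12 lower. For S cells, lower members numbered 1, 8 and 2 in the Day7, Day14 and chimaera tables alone and 1 among LZ cells, and higher members 13 among DZ cells. For G2M cells, the Day7 table alone gave 16 higher, LZ cells 2 lower and DZ cells 9 higher. The interaction gave 0 lower among G1 cells and with size factors. Cells of the shared UMI range gave 8 higher and 18 lower between days. The share difference was 0.918 points for Psmb8 and Psmb5 and 7.74 for Psmb10 and Psmb7. For the counts in this section, shares of all genes called are given only where the comparisons above state them.

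When 1 library was left out, S cells had 2 to 3 members lower, and the interaction 0 to 1 higher and 0 to 12 lower, the 12 without Day7 replicate 1. The other counts stayed within 1.5 times, with 20 to 28 lower in LZ cells, 25 to 32 higher in S cells and 37 to 42 lower between days. Leaving out 1 library of 2 leaves a lone library in a group, which is assumed to vary like the others.

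Turned signs were -0.10 for Psme3 in the zones without MYC-high clusters; in S cells 0.052 for Psmb8, 0.10 for Psmb9 and 0.0094 for Psmd10 in the chimaera table alone, 0.0198 for Psme1 among LZ cells and -0.0168 for Psmd9 among DZ cells; in G2M cells 0.35 for Psme2, -0.25 for Psme4 and 0.069 for Psme2b among LZ cells and -0.0155 for Psmb5 among DZ cells; and between days in the shared UMI range 0.45 for Psmb6, 0.18 for Psmb7 and 0.0841 for Psme3. Except where a setting by its construction uses fewer cells or libraries, the cause was not tested.

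With Day7 and Day14 numbers as a replicate block, the day fit again called 1 member higher and 42 lower. The numbers share no stated source, and deviations of same-numbered libraries correlated at 0.211 over 5565 genes. Depth limits the KO values of members under 20 CPM, and counting intervals say nothing of spread between mice.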
